A study of Mus musculus with 15 samples.

Results

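A set of 9 genes that mark vascular endothelium was followed in fibroblasts sorted from mouse lungs that carried human breast cancer metastases. The genes were Tek, Tie1, Cdh5, Cldn5, Esam, Pecam1, Plvap, Emcn and Vwf, and a gene was measured by the probe sets that the platform annotation assigns to it and to no other gene. They took up 10 of 45036 probe sets and 9 of 18193 genes, and Cdh5 was the only member read by 2 probe sets. Affymetrix Mouse Genome arrays measured 15 sorted samples in 5 groups of 3. All mice were immunodeficient NSG mice, which lack mature lymphocytes, and were 6 to 8 weeks old. The MDA-LM2 macro and MDA macro groups were taken at week 3, when macrometastases were prominent. The mice had received, through the tail vein, either MDA-MB-231-LM2 cells (labelled MDA-LM2), selected for strong metastasis, or their parental human breast cancer line MDA-MB-231 (MDA). The MDA-LM2 micro and MDA micro groups were taken at week 1, when lungs held mainly micrometastases. The healthy group came from mice of the same age without cancer cells. Mice with similar metastatic load were chosen for both lines, and each replicate held 1 to 3 mice. The gate kept cells stained for the fibroblast receptors PDGFRA or PDGFRB. Both antibodies carried the same dye, so a cell with either receptor could pass. The gate removed cells that carried PECAM1, found on endothelium, PTPRC or ITGAM, found on leukocytes, or EPCAM, found on epithelium.

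Endothelial cells line blood vessels and seal the vessel wall through junctions built on VE-cadherin and claudin 5. Their receptor TIE2, encoded by Tek, binds angiopoietins from neighbouring mural and stromal cells, and this signal keeps resting vessels stable. In a fraction gated free of PECAM1-positive cells, endothelial transcripts serve as a check of purity, although some of the genes can also be transcribed outside endothelium.

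Promoters of the TIE receptor genes and of Emcn are shown because Tek had the largest change among the members, Tie1 is its closest relative, and Emcn moved the opposite way. RefSeq promoters of build GRCm38.p6 were matched for 4 of the 9 members. Each window holds 250 bases before and 50 bases after the start of the gene, on the strand of the gene. Capitals mark GGAAG or its reverse complement CTTCC, which ETS factors can bind, and GATAA or its reverse complement TTATC, which GATA factors can bind. Other sequences that these factors bind were not searched. Both families are known to regulate endothelial genes.
Tek, chr4:94739039-94739338, plus strand: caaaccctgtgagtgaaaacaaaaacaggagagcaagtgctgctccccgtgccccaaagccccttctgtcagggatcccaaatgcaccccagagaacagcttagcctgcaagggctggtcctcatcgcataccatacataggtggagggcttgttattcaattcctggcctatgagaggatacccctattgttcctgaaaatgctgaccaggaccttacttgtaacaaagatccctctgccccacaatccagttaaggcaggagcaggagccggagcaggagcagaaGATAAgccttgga
Tie1, chr4:118489800-118490099, minus strand: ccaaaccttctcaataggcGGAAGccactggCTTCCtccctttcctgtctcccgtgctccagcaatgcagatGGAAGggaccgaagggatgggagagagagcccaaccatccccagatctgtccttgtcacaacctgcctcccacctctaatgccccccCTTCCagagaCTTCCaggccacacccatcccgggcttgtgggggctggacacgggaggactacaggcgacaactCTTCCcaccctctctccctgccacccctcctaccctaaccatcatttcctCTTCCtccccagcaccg
Emcn, chr3:137340828-137341127, plus strand: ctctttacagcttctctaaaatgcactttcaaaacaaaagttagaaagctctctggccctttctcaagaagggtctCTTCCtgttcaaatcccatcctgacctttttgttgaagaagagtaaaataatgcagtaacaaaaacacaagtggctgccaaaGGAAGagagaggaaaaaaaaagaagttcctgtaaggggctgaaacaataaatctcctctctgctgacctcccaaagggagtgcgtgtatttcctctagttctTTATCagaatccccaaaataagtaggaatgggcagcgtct
On either strand, the Tek window held 0 matches of GGAAG and 1 of GATAA, whereas the Tie1 window held 7 and 0. These counts hold for the letters searched and not for all ETS or GATA sequences. The Emcn window held 2 matches of GGAAG and 1 of GATAA. The window of Cldn5, the other matched member, is not shown and held 0 matches of either motif. No match of one motif overlapped a match of the other in these windows. Of 32841 mouse promoters of the same length, 71.4% held GGAAG and 25.4% held GATAA on either strand. A match describes letters in a window and is not a binding site.

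The gate was checked on the arrays first. The 95th percentile of 79 olfactory, vomeronasal and trace amine receptor probe sets served as the background level of an array, and it lay at an intensity of 118 to 149. Probe sets differ in affinity, so this level is a description and not a detection test, and it was chosen after the values were seen. The receptor genes of the gate, Pdgfra and Pdgfrb, were above background on all 15 arrays, and Ptprc, Itgam and Epcam were below it on all 15. All 10 of the fibroblast genes examined, among them the collagen gene Col1a1, were above background on every array. Of the members, Tek, Plvap and Esam were above background on all 15 arrays, Pecam1 on 14 and Vwf on 12. Cldn5 was above background on 7 arrays, Cdh5 on 6 with its brighter probe set and on 1 with the other, Emcn on 6 and Tie1 on 1. The defining junction gene Cdh5 and the receptor gene Tie1, like Cldn5 and Emcn, were thus not above background on most arrays. Tek, Plvap, Esam, Vwf and Pecam1, the marker used in the gate, were above it on most.

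**Figure D1:**
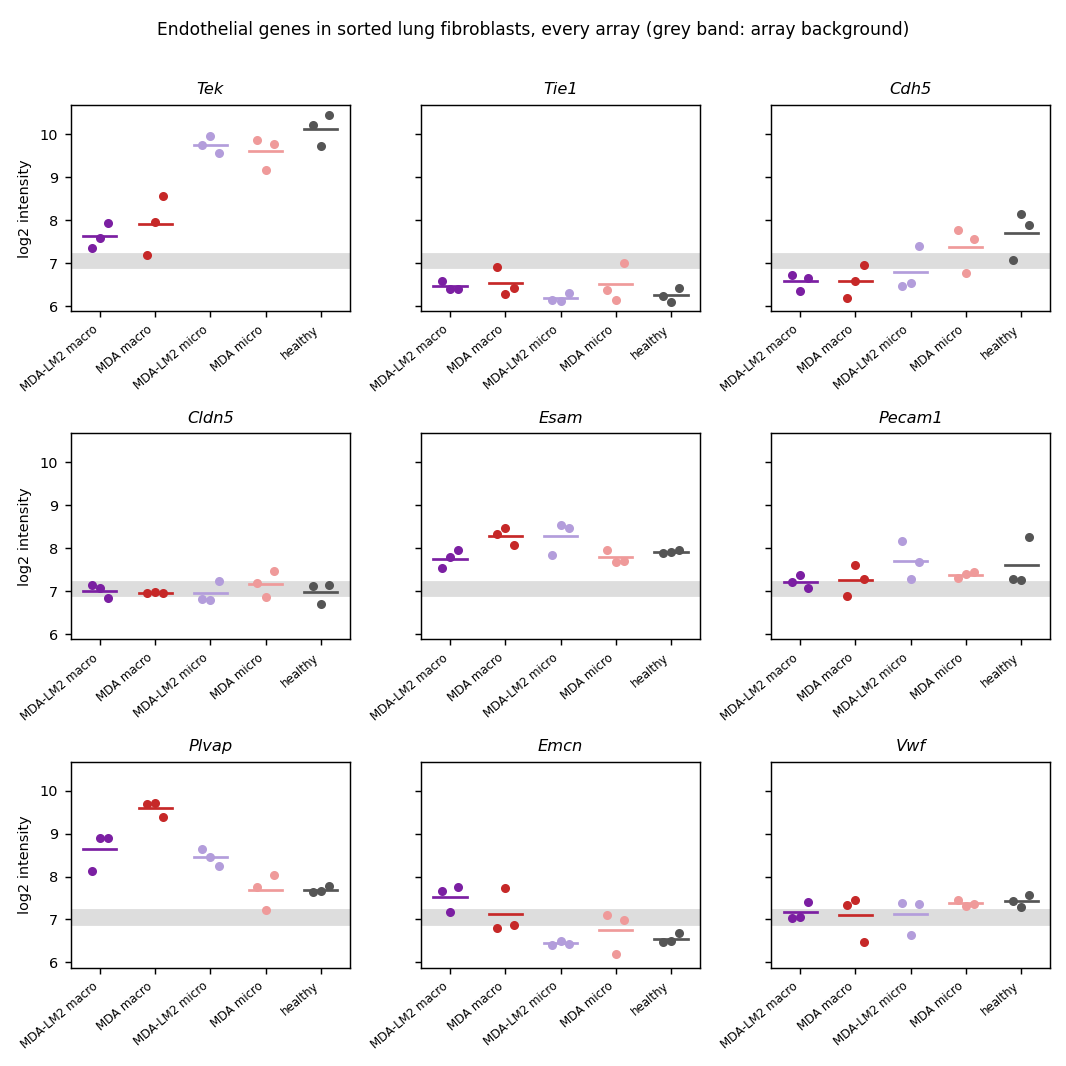
Log2 intensity of the 9 endothelial genes on each of the 15 arrays. Points are arrays, bars are group means of 3 arrays, groups run from MDA-LM2 macro on the left to healthy on the right, and the grey band spans the background level of the 15 arrays. Tek is lower on the 6 macro arrays than on the 9 others, Plvap is highest on the 3 MDA macro arrays, and most other members lie close to the band.

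Tek was the member with the highest spread over the arrays and fell strongly at the macrometastatic stage. Its intensity was 163, 192 and 246 in MDA-LM2 macro fibroblasts, 147, 249 and 376 in MDA macro fibroblasts, 862, 993 and 751 in MDA-LM2 micro fibroblasts, 935, 577 and 878 in MDA micro fibroblasts, and 1183, 847 and 1406 in healthy fibroblasts. All 6 macro arrays lay below all 9 others, and the lowest array outside the macro groups still had 577. In mean log2 intensity the order was 7.63 ± 0.30 in MDA-LM2 macro, 7.90 ± 0.68 in MDA macro, 9.61 ± 0.38 in MDA micro, 9.75 ± 0.20 in MDA-LM2 micro and 10.13 ± 0.37 in healthy fibroblasts (SD, n = 3 each). The groups next to each other in this order overlapped, except MDA macro and MDA micro. Against healthy fibroblasts, Tek fell by 2.50 ± 0.23 on the log2 scale in MDA-LM2 macro (SE, limma, adjusted p = 0.000603) and fell by 2.23 ± 0.35 in MDA macro (adjusted p = 0.007). That is an intensity 5.68-fold and 4.68-fold lower.

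Between stages of the same line, Tek fell by 2.13 ± 0.18 in MDA-LM2 macro against MDA-LM2 micro (adjusted p = 0.000613) and by 1.70 ± 0.34 in MDA macro against MDA micro (adjusted p = 0.0148). The last call was lost without MDA micro replicate 3 (adjusted p = 0.0505). Over both lines the stage effect was -1.91 ± 0.22 (n = 12 arrays, adjusted p = 3.36e-05). The stage effect of MDA-LM2 minus that of MDA was -0.43 ± 0.43, with a 95% interval of -1.37 to 0.52, and did not pass the test (adjusted p = 0.797). In micro fibroblasts Tek was not called against healthy, at -0.38 ± 0.21 for MDA-LM2 (adjusted p = 0.541) and -0.52 ± 0.25 for MDA (adjusted p = 0.637). All these comparisons with healthy fibroblasts share the same 3 healthy arrays. In a bulk sorted sample, fewer cells that express a gene and less RNA of it per cell cannot be told apart.

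Tie1, the orphan receptor that pairs with TIE2, did not follow Tek. It read 96.0, 84.7 and 83.8 in MDA-LM2 macro fibroblasts, 120.4, 77.8 and 85.4 in MDA macro fibroblasts and 75.8, 68.5 and 85.6 in healthy fibroblasts. It read 70.2, 69.8 and 79.2 in MDA-LM2 micro and 83.1, 70.4 and 128 in MDA micro fibroblasts, so the only array above its background belonged to MDA micro. Its stage effect was 0.15 ± 0.15 (95% interval -0.17 to 0.48, adjusted p = 0.479). Near background, a fall of Tie1 was not detectable on these arrays.

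Among the junction genes, Cdh5 was lower at the macrometastatic stage than in healthy fibroblasts, but from a level close to background. Cdh5 encodes VE-cadherin, the adhesion molecule of endothelial adherens junctions. Its brighter probe set read 106, 81.6 and 101 in MDA-LM2 macro and 72.6, 95.4 and 124 in MDA macro fibroblasts, against 134, 284 and 237 in healthy fibroblasts. The means of the micro groups lay between them, with arrays at 88.7, 93.5 and 167 in MDA-LM2 micro and 219, 109 and 188 in MDA micro fibroblasts. No macro array was above background, and all 3 healthy arrays were. Cdh5 fell by 1.12 ± 0.28 in MDA-LM2 macro (adjusted p = 0.0272) and by 1.13 ± 0.31 in MDA macro (adjusted p = 0.0497). Both calls were lost in 5 of 6 fits that left out an array, all but that without healthy replicate 1, with an adjusted p of up to 0.0935 for MDA-LM2 macro and up to 0.144 for MDA macro. The dimmer probe set, above background on a single healthy array, gave -0.77 ± 0.18 (adjusted p = 0.0238) for MDA-LM2 macro and -0.59 ± 0.25 (adjusted p = 0.17) for MDA macro when all probe sets were tested. The stage effect of Cdh5 was -0.51 ± 0.22 (adjusted p = 0.102).

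Cldn5, which encodes the tight junction protein claudin 5, was above background on 7 of 15 arrays and highest on an MDA micro array. It read 114 to 141 in MDA-LM2 macro, 124 to 126 in MDA macro, 111 to 151 in MDA-LM2 micro, 117 to 176 in MDA micro and 105 to 141 in healthy fibroblasts, and all groups overlapped with healthy. Its stage effect of -0.07 ± 0.12 did not pass (95% interval -0.34 to 0.19, adjusted p = 0.675). Pecam1, the adhesion receptor used in the gate, read 149.5, 165 and 135 in MDA-LM2 macro and 119, 194 and 157 in MDA macro fibroblasts, against 155, 154 and 309 in healthy fibroblasts. It read 290.1, 156 and 205 in MDA-LM2 micro and 158, 169 and 174 in MDA micro fibroblasts. The groups overlapped in each comparison, and 1 healthy and 1 MDA-LM2 micro array were the highest. Its stage effect was -0.31 ± 0.16 (95% interval -0.65 to 0.04, adjusted p = 0.166).

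Esam, which encodes an immunoglobulin-type adhesion molecule of endothelial tight junctions and platelets, passed no test, and its values differed in direction between the lines. It read 185, 222 and 249 in MDA-LM2 macro, 320.5, 357 and 272 in MDA macro, 230.1, 370.3 and 358 in MDA-LM2 micro, 249, 205 and 210.3 in MDA micro, and 236, 243 and 251 in healthy fibroblasts. The MDA macro arrays lay above all healthy and all MDA micro arrays, and the MDA-LM2 macro arrays lay below all MDA macro arrays. The log2 fold change was 0.51 ± 0.15 for MDA macro against MDA micro (adjusted p = 0.0504) and -0.53 ± 0.21 for MDA-LM2 macro against MDA-LM2 micro (adjusted p = 0.15). The difference of the stage effects was -1.04 ± 0.27 (adjusted p = 0.131), and -1.26 (adjusted p = 0.0406) without MDA-LM2 micro replicate 1.

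Plvap rose most clearly with MDA macrometastases. It encodes a protein of the diaphragms that span endothelial fenestrae and caveolae, and it marks permeable vessels. Its intensity was 279.7, 473 and 481 in MDA-LM2 macro, 824, 845 and 664 in MDA macro, 402, 350.2 and 304 in MDA-LM2 micro, 217, 150.1 and 263 in MDA micro, and 199.9, 202 and 219 in healthy fibroblasts. The 3 MDA macro arrays were the highest of the 15, and the healthy and MDA micro arrays were the lowest. In mean log2 intensity the order was 7.68 ± 0.41 in MDA micro, 7.69 ± 0.07 in healthy, 8.45 ± 0.20 in MDA-LM2 micro, 8.64 ± 0.44 in MDA-LM2 macro and 9.59 ± 0.19 in MDA macro fibroblasts (SD, n = 3 each). MDA micro and healthy overlapped, and so did both MDA-LM2 groups.

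Against healthy fibroblasts, Plvap rose by 0.95 ± 0.22 in MDA-LM2 macro (adjusted p = 0.0212) and by 1.90 ± 0.13 in MDA macro (adjusted p = 0.000456). The call in MDA-LM2 macro was lost in 4 of 6 fits that left out an array, namely without MDA-LM2 macro replicate 2 (adjusted p = 0.0755) or 3 (0.0688) and without healthy replicate 1 (0.059) or 2 (0.056). The log2 fold change was 0.76 ± 0.14 in MDA-LM2 micro, where the groups did not overlap but the test was not passed (adjusted p = 0.0885), and -0.01 ± 0.21 in MDA micro (adjusted p = 0.99). Between stages, Plvap rose by 1.92 ± 0.22 with MDA (adjusted p = 0.00152), and the value was 0.19 ± 0.23 with MDA-LM2 (95% interval -0.35 to 0.74, adjusted p = 0.633). The stage effect over both lines was 1.05 ± 0.30 (adjusted p = 0.0168). The difference between the lines in this effect was -1.73 ± 0.34 and narrowly missed the threshold (adjusted p = 0.0542). It passed in 5 of 19 other fits, with adjusted p between 0.0304 and 0.12 over all of them. The 5 include a filter on low values that kept Plvap only through groups where it was high. Compared directly, MDA-LM2 macro against MDA macro gave -0.95 ± 0.23 (adjusted p = 0.206) and MDA-LM2 micro against MDA micro 0.77 ± 0.22 (adjusted p = 0.25), both without overlap of the groups.

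Emcn rose with MDA-LM2 macrometastases. It encodes endomucin, a sialomucin of capillary and venous endothelium. It read 203, 144 and 215 in MDA-LM2 macro, 111, 214 and 117 in MDA macro, 85.1, 89.9 and 85.7 in MDA-LM2 micro, 138, 73.7 and 127 in MDA micro, and 89.3, 90.1 and 103 in healthy fibroblasts. All MDA-LM2 macro arrays were above background, as were 1 MDA macro array and 2 MDA micro arrays, while no healthy or MDA-LM2 micro array was. Emcn rose by 0.97 ± 0.17 in MDA-LM2 macro against healthy (adjusted p = 0.00842) and by 1.08 ± 0.17 against MDA-LM2 micro (adjusted p = 0.00576). These are measured values against groups whose arrays lay below the background level. In MDA macro the value was 0.58 ± 0.25 (adjusted p = 0.168), with replicate 2 the highest array. The stage effect over both lines was 0.73 ± 0.22 (adjusted p = 0.0229) and was lost in 5 of 12 fits that left out an array (MDA-LM2 macro replicate 1 or 3, MDA macro replicate 2, MDA-LM2 micro replicate 1 or MDA micro replicate 2), with adjusted p of up to 0.0531. The line difference of 0.72 ± 0.40 did not pass (adjusted p = 0.546).

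Vwf, which encodes the clotting protein von Willebrand factor that endothelium and platelets store, passed no test. It read 131, 133 and 170.3 in MDA-LM2 macro, 163, 176 and 89.3 in MDA macro and 158 to 189 in healthy fibroblasts. Its log2 fold change against healthy was -0.26 ± 0.14 in MDA-LM2 macro (adjusted p = 0.231) and -0.33 ± 0.26 in MDA macro (adjusted p = 0.423).

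Counted over the members against healthy fibroblasts, 2 rose and 2 fell in MDA-LM2 macro, where 13.6% of all genes rose and 8.98% fell (22.6% called). In MDA macro 1 rose and 2 fell, where 8.43% of all genes rose and 6.8% fell (15.2% called). The groups did not overlap for 4 members in MDA-LM2 macro, beside 43.4% of all genes, and for 5 members in MDA macro, beside 37.7%. At week 1, 0 members were called in MDA-LM2 micro (0.583% of all genes) and 0 in MDA micro (0%). At an unadjusted p under 0.05 there were 2 members in MDA-LM2 micro, beside 12% of all genes, and 0 in MDA micro, beside 8.48%.

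In MDA-LM2 macro against MDA-LM2 micro, Emcn rose and Tek fell, where 15.6% of all genes were called, 9.25% higher and 6.38% lower. In MDA macro against MDA micro, Plvap rose and Tek fell, where 18.4% were called, 10.4% higher and 7.95% lower. The stage effect over both lines called 2 members higher and 1 lower, where 31.1% of all genes were called, 18.8% higher and 12.3% lower. Between lines, 0 members were called in MDA-LM2 macro against MDA macro (0.011% of all genes), 0 in MDA-LM2 micro against MDA micro (0.412%) and 0 for the difference in stage effect (0.566%). At an unadjusted p under 0.05 these 3 comparisons held 2 members each, beside 10.2%, 11.7% and 11.5% of all genes. These shares rest on all arrays: with 1 array left out, the genes called numbered 0 to 46, against 106, in MDA-LM2 micro against healthy, and 1529 to 2138, against 2771, in MDA macro against healthy. The median log2 fold change of the 9 members was -0.16 in MDA-LM2 macro and -0.03 in MDA macro, against medians of 0.08 and 0.05 over all genes. The members thus did not move as a block. Against healthy, Tek and Cdh5 fell and Plvap rose in both macro groups, while Emcn was called higher in MDA-LM2 macro only. The Cdh5 calls, and that of Plvap in MDA-LM2 macro, were lost in most fits that left out an array.

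**Figure D2:**
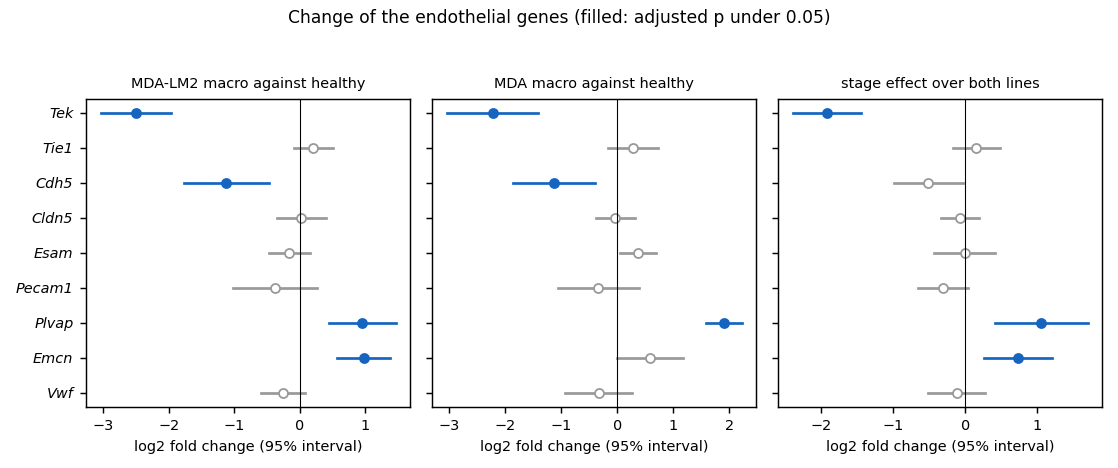
Log2 fold change of each member with its 95% interval in MDA-LM2 macro against healthy, MDA macro against healthy, and for the stage effect (macro minus micro) over both lines. Filled points have an adjusted p under 0.05. Tek stands at -2.50, -2.23 and -1.91, while Plvap stands at 0.95, 1.90 and 1.05.

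The ligands and partners of TIE2 were read beside Tek. Of 11 measured partners of the members, 3 rose and 3 fell in MDA-LM2 macro against healthy, and 2 rose and 2 fell in MDA macro. Of all genes, 13.6% rose and 8.98% fell in MDA-LM2 macro, and 8.43% rose and 6.8% fell in MDA macro. Angpt1, the main activating ligand of TIE2, read 1123, 573 and 1344 in MDA-LM2 macro and 952, 1019 and 1735 in MDA macro fibroblasts, against 3230.3, 3149.8 and 2639.6 in healthy fibroblasts. It fell by 1.65 ± 0.30 (adjusted p = 0.00968) and 1.33 ± 0.24 (adjusted p = 0.0116), and no macro array reached a healthy one. Angpt4, a further ligand, fell by 1.27 ± 0.25 in MDA-LM2 macro (adjusted p = 0.0126) and by 1.23 ± 0.20 in MDA macro (adjusted p = 0.00782).

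Angpt2, the ligand that often acts against Angpt1, was not called, at -0.23 ± 0.21 in MDA-LM2 macro (adjusted p = 0.478) and 0.59 ± 0.22 in MDA macro (adjusted p = 0.115). Ptprb, which encodes the phosphatase VE-PTP that acts on TIE2 and VE-cadherin, was higher in both macro groups. Its intensity was 699, 805 and 1221 in MDA-LM2 macro and 914, 828 and 530.0 in MDA macro fibroblasts, against 219.5, 252 and 219 in healthy fibroblasts. No macro array reached down to a healthy one, and Ptprb rose by 1.94 ± 0.21 (adjusted p = 0.00119) and 1.68 ± 0.21 (adjusted p = 0.0031). The calls of Angpt1, Angpt4 and Ptprb in both macro groups held in all 13 alternative fits. Among these, the filter on low values kept Ptprb only through the macro groups, where it was high. That fit therefore adds no support for Ptprb. Of the junction partners, Cdh2, which encodes N-cadherin and is also expressed by fibroblasts, rose by 1.76 ± 0.22 in MDA-LM2 macro (adjusted p = 0.00217) and stood at 0.83 ± 0.32 in MDA macro (adjusted p = 0.131). Tjp1, which encodes the scaffold ZO-1, fell by 0.65 ± 0.11 in MDA-LM2 macro (adjusted p = 0.00803). The catenin gene Ctnnd1 rose on its representative probe set by 0.49 ± 0.13 in MDA-LM2 macro (adjusted p = 0.0326) and 0.56 ± 0.13 in MDA macro (adjusted p = 0.0253), but was not called with the mean of its probe sets (adjusted p of up to 0.86) and in each group was called in 1 of 6 fits that left out an array, that without healthy replicate 2.

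**Figure D3:**
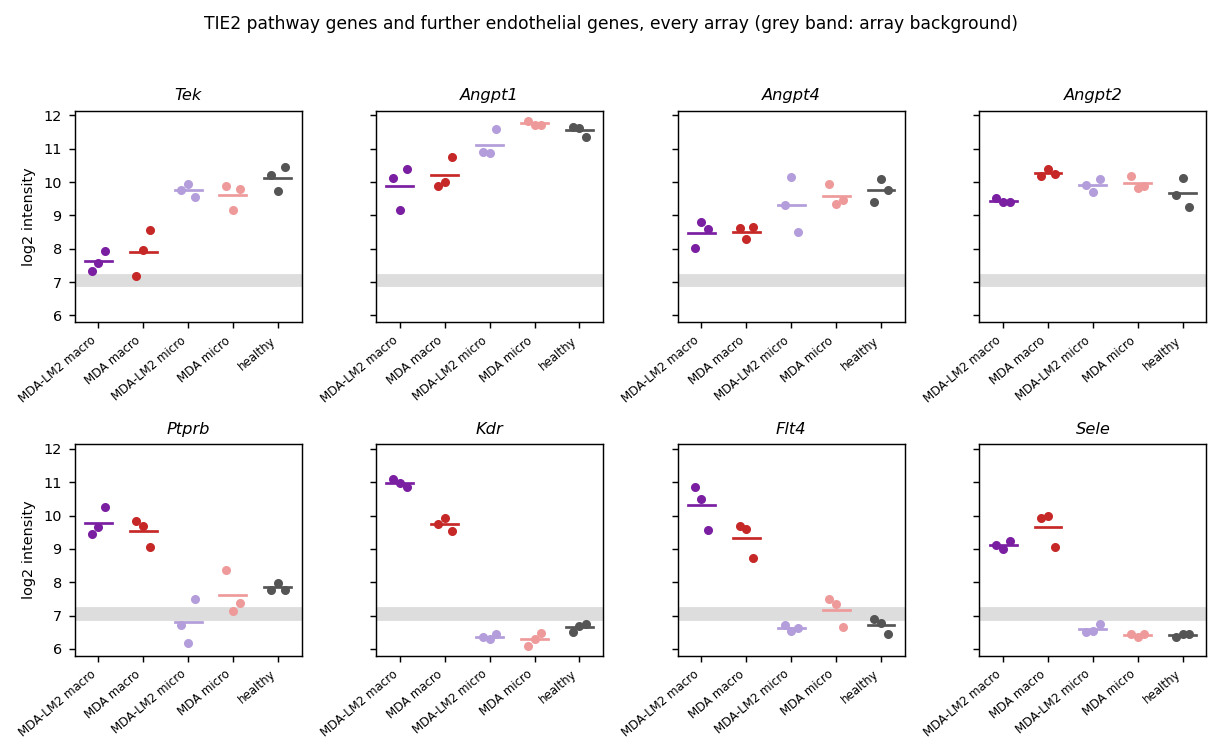
Log2 intensity of Tek, its ligand genes Angpt1, Angpt4 and Angpt2, the phosphatase gene Ptprb and the further endothelial genes Kdr, Flt4 and Sele on the 15 arrays. Points are arrays, bars are group means of 3 arrays, and the grey band spans the array background. Tek and Angpt1 are lower on the 6 macro arrays than on the others, Angpt4 is lower there than on the healthy arrays, and Ptprb, Kdr, Flt4 and Sele are higher there than on the others.

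Other endothelial genes lay on both sides of their healthy level. The list of 27 further pan-endothelial genes includes Ptprb, which was counted among the partners as well. Of the 27, 6 rose and 4 fell against healthy in MDA-LM2 macro, beside 13.6% and 8.98% of all genes. Likewise 6 rose and 4 fell in MDA macro, beside 8.43% and 6.8%. Their median log2 fold change was 0.25 and 0.30. Kdr, which encodes the VEGF receptor VEGFR2, read 2183, 2022 and 1871 in MDA-LM2 macro and 864, 979 and 735 in MDA macro fibroblasts, against 91.9, 103 and 107 in healthy fibroblasts. It rose by 4.33 ± 0.12 (adjusted p = 3.65e-05) and 3.09 ± 0.14 (adjusted p = 0.000185), from a level below background on all healthy arrays. Ecscr, which encodes a regulator of endothelial chemotaxis, rose by 2.71 ± 0.20 (adjusted p = 0.000294) and 2.46 ± 0.20 (adjusted p = 0.000701), and 1 MDA-LM2 micro array also read 1534, beside 322 and 331. Ramp2, a co-receptor of adrenomedullin signalling, was lower at -1.27 ± 0.27 and -1.39 ± 0.31 (adjusted p = 0.0168 and 0.0247). The Ramp2 call of MDA-LM2 macro was lost without MDA-LM2 macro replicate 3 (adjusted p = 0.0559), and that of MDA macro without MDA macro replicate 2, healthy replicate 1 or healthy replicate 3 (up to 0.0703).

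Among 12 arterial and venous genes, 3 rose and 3 fell in MDA-LM2 macro, and 1 rose and 2 fell in MDA macro. For this and the next lists, the shares of all genes were 13.6% higher and 8.98% lower in MDA-LM2 macro. They were 8.43% higher and 6.8% lower in MDA macro. Sele, the cytokine-induced E-selectin of venules, rose by 2.70 ± 0.11 (adjusted p = 8.41e-05) and 3.24 ± 0.25 (adjusted p = 0.000558), and the arterial connexin gene Gja5 was lower at -1.51 ± 0.26 (adjusted p = 0.00794) and -1.46 ± 0.29 (adjusted p = 0.0173). The Gja5 call in MDA macro was lost without MDA macro replicate 1 or 2 or healthy replicate 1 (adjusted p of up to 0.0605). Sema3g, which encodes a semaphorin of arterial endothelium, rose by 2.02 ± 0.47 in MDA-LM2 macro (adjusted p = 0.0222), a call lost without healthy replicate 1 or 3 (up to 0.058), and stood at 1.18 ± 0.33 in MDA macro (adjusted p = 0.0553). Among 8 lung capillary genes, Tmem100 fell by 2.41 ± 0.31 (adjusted p = 0.00214) and 2.29 ± 0.31 (adjusted p = 0.00395), Ednrb fell by 0.73 ± 0.19 in MDA-LM2 macro (adjusted p = 0.0308), and none rose in these 2 comparisons. The Ednrb call was lost in the fit of all 15 arrays and without MDA-LM2 macro replicate 2 or 3 or healthy replicate 3 (adjusted p of up to 0.1). Among 5 lymphatic genes, 1 rose and 1 fell in MDA-LM2 macro, and 1 rose in MDA macro. Flt4, which encodes VEGFR3, rose by 3.61 ± 0.32 (adjusted p = 0.00056) and 2.64 ± 0.27 (adjusted p = 0.00149), and the reelin gene Reln fell by 0.48 ± 0.11 in MDA-LM2 macro (adjusted p = 0.0259), called in 1 of 6 fits that left out an array, that without healthy replicate 3. Among 8 angiogenic genes, 2 rose and 2 fell in each macro group, with the netrin receptor gene Unc5b higher by 2.81 ± 0.24 (adjusted p = 0.000535) and 2.71 ± 0.24 (adjusted p = 0.000928), and the chemokine receptor gene Cxcr4 lower at -2.45 ± 0.26 (adjusted p = 0.00104) and -1.78 ± 0.28 (adjusted p = 0.00766). In these pairs of values MDA-LM2 macro stands first and MDA macro second. Sele and Flt4, like Kdr, were set against healthy arrays near or below the background level. Reln was above that level on 0 of 15 arrays, so its fall lay wholly below background. Several of the genes, such as Cxcr4 and Unc5b, are also expressed outside endothelium, and lists chosen for endothelium do not fix the cell of origin.

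**Figure D4:**
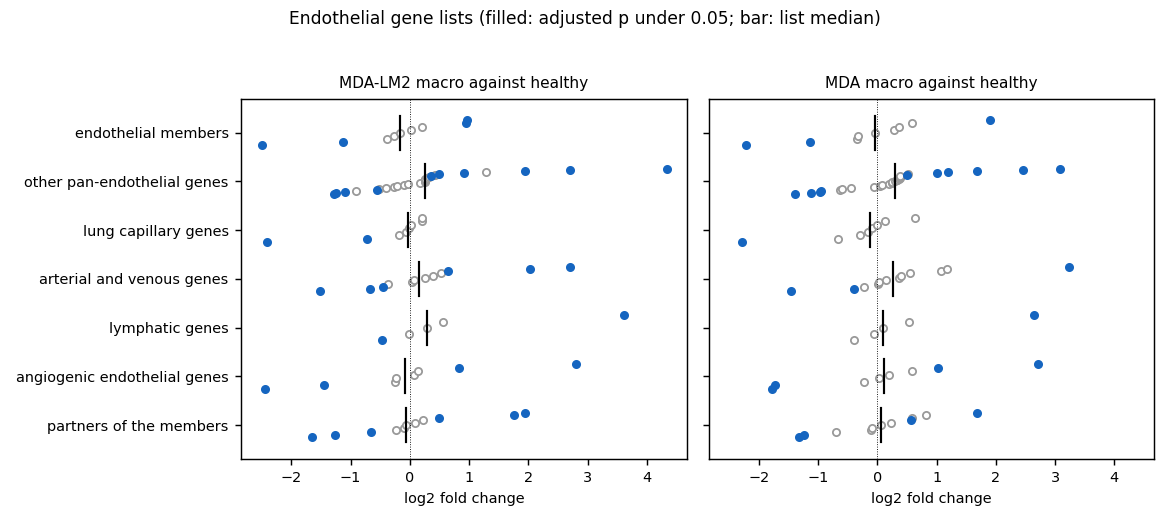
Log2 fold change of every measured gene of 7 lists in MDA-LM2 macro against healthy and MDA macro against healthy. Each point is a gene, filled at an adjusted p under 0.05, and the bar is the median of the list. Called genes lie on both sides of 0 in the members and in 5 of the other 6 lists in MDA-LM2 macro, while the called lung capillary genes lie below 0.

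Genes of fibroblasts and of other cell types moved with the macrometastatic stage as well, and their part in the members' changes was not tested. Of 10 fibroblast genes, 1 rose and 5 fell in MDA-LM2 macro against healthy, and 1 rose and 3 fell in MDA macro. Their median log2 fold change was -0.44 in MDA-LM2 macro and -0.40 in MDA macro. For all lists here, 13.6% of all genes rose and 8.98% fell in MDA-LM2 macro, and 8.43% rose and 6.8% fell in MDA macro. Of 12 measured leukocyte genes, 3 rose in MDA-LM2 macro and 4 in MDA macro against healthy, and none fell. Their summed intensity was 3906 to 5122 in MDA-LM2 macro, 3397 to 3588 in MDA macro and 1728 to 2403 in healthy fibroblasts, although the defining Ptprc and Itgam were below background. Of 12 epithelial genes, 4 rose and 2 fell in MDA-LM2 macro, and 2 rose and 0 fell in MDA macro. Krt8 and Krt18, keratins of simple epithelia, rose by 3.53 ± 0.21 and 4.70 ± 0.36 in MDA-LM2 macro (adjusted p = 0.000161 and 0.000347) and by 2.20 ± 0.48 and 3.38 ± 0.23 in MDA macro (adjusted p = 0.0246 and 0.000424), measured against healthy arrays on which both were below background. The Krt8 call in MDA macro was lost without MDA macro replicate 1 or any healthy array (adjusted p of up to 0.0828). Aqp5, the water channel of alveolar type I cells, rose by 2.31 ± 0.13 in MDA-LM2 macro (adjusted p = 0.000133), while the club cell gene Scgb1a1 fell by 2.91 ± 0.78 (adjusted p = 0.0373), called in 1 of 6 fits that left out an array, that without healthy replicate 2. Epcam was below background. Of 6 platelet genes, Gp1bb, a subunit of the receptor for von Willebrand factor, rose in both macro groups (0.68 ± 0.19, adjusted p = 0.0406, in MDA-LM2 macro and 1.31 ± 0.14, adjusted p = 0.0017, in MDA macro). The Gp1bb call in MDA-LM2 macro was lost in the fit of all 15 arrays and without MDA-LM2 macro replicate 1 or 3 or healthy replicate 1 or 2 (adjusted p of up to 0.117). Of 11 pericyte genes, which mark the mural cells that touch endothelium, 1 rose and 5 fell in MDA-LM2 macro, and 3 rose and 4 fell in MDA macro. Of the receptors of the gate, Pdgfra fell by 0.57 ± 0.12 in MDA-LM2 macro (adjusted p = 0.015) and by 0.62 ± 0.11 in MDA macro (adjusted p = 0.0115), while Pdgfrb stood at 0.36 ± 0.11 (adjusted p = 0.0647) in MDA-LM2 macro and rose by 0.55 ± 0.12 in MDA macro (adjusted p = 0.021). The Pdgfrb call held in 1 of 6 fits that left out an array, that without healthy replicate 1 (adjusted p of up to 0.0644), and that of Pdgfra in MDA-LM2 macro was lost without MDA-LM2 macro replicate 2 (0.052). The Gapdh probe set difference between the 3' and 5' ends is a sign of RNA quality. In log2 it was 1.01 to 1.05 in MDA-LM2 macro, 1.03 to 1.43 in MDA macro and 1.16 to 1.70 in healthy fibroblasts. It was 1.18 to 1.24 in MDA-LM2 micro and 1.37 to 1.44 in MDA micro fibroblasts. The same difference for the actin gene Actb was -0.21 to -0.02 over all arrays.

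For each called member, the 3 genes nearest in profile were those with the smallest root mean square difference of log2 values over the 15 arrays, after each gene was centred on its own mean. Tek lay nearest to Arhgap20, at a difference of 0.29, Omd at 0.30 and Tnxb at 0.30, beside its own SD of 1.09 over the arrays. Omd and Tnxb encode the matrix proteins osteomodulin and tenascin X. Tnxb read 966, 1753 and 1601 in MDA-LM2 macro and 1531, 1725 and 2602 in MDA macro fibroblasts, against 6487, 6551 and 6709 in healthy fibroblasts. Plvap lay nearest to the phosphodiesterase gene Pde1b at 0.29, the matrix peroxidase gene Pxdn at 0.30 and Dzip1l at 0.30, beside its own SD of 0.75. Pde1b was also highest in MDA macro, with 989, 971 and 1107, against 237, 292 and 280.4 in healthy fibroblasts.

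Cdh5 lay at 0.32 from the adducin gene Add3, at 0.32 from Zfp708 and at 0.33 from Tmem177, beside an SD of 0.59. Emcn lay at 0.18 from Rab11a, which encodes a GTPase of recycling endosomes, at 0.24 from Flrt2 and at 0.24 from Tmem151a, beside an SD of 0.49. The likeness is a description over 15 arrays that share their groups.

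**Figure D5:**
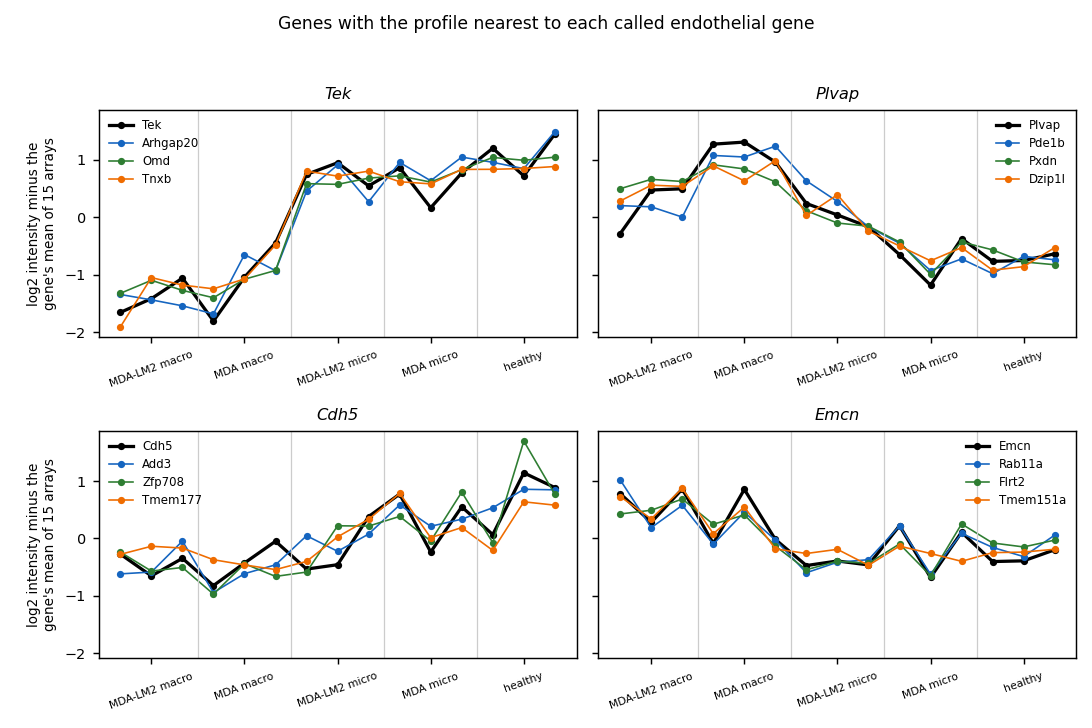
Centred log2 intensity over the 15 arrays of Tek, Plvap, Cdh5 and Emcn (black) and of the 3 genes nearest to each in profile (coloured), with groups from MDA-LM2 macro on the left to healthy on the right. Lines join arrays for reading only, since replicates have no order. The genes near Tek drop on the 6 macro arrays, and those near Plvap are higher on the MDA macro arrays than on the micro and healthy arrays.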

How the data were processed

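Fibroblasts sorted from lungs were profiled on Affymetrix Mouse Genome arrays after RNA preamplification. The authors ran RMA normalization in Chipster 3.8.0 before they deposited the intensities. The file holds these on a linear scale, as judged from their range, and how they were returned from log2 is not given in the sources used here. No scanner values, scan dates or slides were used, so batches could not be tested. Precision is set by the 3 arrays per group.

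For testing, log2 was taken and nothing else was normalized. Of 45036 probe sets left without 64 controls, 34944 had 1 gene symbol, and a gene was represented by the brightest of these over all 15 arrays. Groups came from the sample labels, and replicates are separate sorts of 1 to 3 mice. Tests were two-sided and used lmFit and eBayes (limma 3.58.1, R 4.3.3), on the 6 arrays of 2 groups or, for the stage effect with line as covariate and the interaction, on the 12 metastasis arrays. Benjamini-Hochberg adjustment ran over 18193 genes, and a gene was called under 0.05. The procedure was tested on simulated data.

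The members and lists were chosen with earlier results of these data known. Named were all members, the gate genes, at most 4 called genes of a list, taken from those with the largest change, and the 3 genes nearest in profile to each called member. Angpt2, Tjp1, Col1a1, the genes with a line difference and the background level were chosen after the values were seen. Alternatives were a fit of all 15 arrays, a block for the replicate number, quantile normalization, arrays centred on their median, the mean of a gene's probe sets, a filter on low values, every probe set tested on its own, and leaving out each array.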

Additional observations from a re-analysis of the deposited data

Results flagged for a closer look

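The stage effect (macro minus micro) differed between the lines for 9 genes of the lists, by the interaction term of limma over 12 arrays, where 0.566% of all genes were called. None of the 9 endothelial members was among them. The values below are the stage effect of MDA-LM2 minus that of MDA on the log2 scale.

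Mcam, an adhesion molecule of endothelium and mural cells, had a difference of -2.32 (adjusted p = 0.00137), and the pericyte gene Rgs5 had -2.35 (adjusted p = 0.00938). Both calls held in all 19 alternative fits. Aqp5, the water channel gene of alveolar type I cells, had 1.76 (adjusted p = 0.0175), lost only without MDA-LM2 macro replicate 2 (0.0503). The filter on low values kept Aqp5 only through MDA-LM2 macro, where it was high, so that fit adds no support for it.

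The other calls were less stable. Kdr, the VEGF receptor gene, had 1.17 (adjusted p = 0.0228), lost with the replicate block and in 5 of 12 fits that left out an array (up to 0.0645). The filter on low values kept Kdr only through the macro groups, where it was high, and adds no support for it. Hey1, a Notch target of arterial endothelium, had -1.31 (adjusted p = 0.0209), lost in the fit of all 15 arrays (0.318) and in 4 of the 12. Gja4, an arterial connexin gene, had -1.41 (adjusted p = 0.041), lost with the block and in 10 of the 12 (up to 0.0936). Of the mural cell genes, Des had -1.68 (adjusted p = 0.0228), lost with the block and in 5 of the 12 (up to 0.0633). Notch3 had -2.16 (adjusted p = 0.0327), lost in 9 of the 12 (up to 0.0772), and Cspg4 had -1.56 (adjusted p = 0.0297), lost in 8 of the 12 (up to 0.0876).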

How the results depend on the processing

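Tek and Plvap in MDA macro against healthy and Tek in MDA-LM2 macro against healthy passed in all 13 alternatives, and Emcn in MDA-LM2 macro against healthy passed in the 12 that tested it. A filter on low values kept a gene when its highest group mean reached 8.12 on the log2 scale. It kept 3 of the 9 members (Tek, Plvap and Esam) among 10154 genes, each only through the groups where it was high. Calls under the filter therefore add no support for these members. The members called fell to 2, against 4, in MDA-LM2 macro against healthy. They fell to 1, against 2, in MDA-LM2 macro against MDA-LM2 micro. The line difference in the stage effect called 1 member, Plvap, in place of 0 in the fit of all 15 arrays (adjusted p = 0.0304), with quantile normalization (0.0495), with the mean of probe sets (0.035) and with the filter (0.0351). Esam in MDA macro against MDA micro passed under quantile normalization, median centring and the mean of probe sets. It also passed under the filter, which kept Esam only through its means in MDA macro and MDA-LM2 micro. Cdh5 in MDA macro against healthy was lost with median centring and when every probe set was tested (highest adjusted p = 0.0559). Ctnnd1 in MDA macro against MDA micro turned to -0.13 with the mean of its probe sets. Except where said, the cause was not tested.

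Leaving out each array gave 2 to 3 members called in MDA-LM2 macro against healthy, 2 to 3 in MDA macro against healthy, 2 to 3 in MDA-LM2 macro against MDA-LM2 micro, 1 to 3 in MDA macro against MDA micro, 2 to 3 for the stage effect, 0 to 1 for the line difference (Plvap without MDA micro replicate 3, Esam without MDA-LM2 micro replicate 1) and 0 elsewhere. Same-numbered replicates did not deviate together (correlations of -0.065 to 0.074 over 30 pairs), so no pairing by number was seen. The labels do not say whether the numbers pair the samples. With the replicate number as a block, 3 members were called in MDA-LM2 macro against healthy (Cdh5 lost, adjusted p = 0.0566), 3 in MDA macro against healthy, 2 in each stage comparison within a line, 3 for the stage effect and 0 elsewhere.

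With 1 array left out, the genes called over the whole table numbered 2433 to 3316 in MDA-LM2 macro against healthy, against 4115, and 1529 to 2138 in MDA macro against healthy, against 2771. They numbered 1701 to 2511 in MDA-LM2 macro against MDA-LM2 micro, against 2843, 2141 to 2626 in MDA macro against MDA micro, against 3344, 0 to 46 in MDA-LM2 micro against healthy, against 106, 0 to 33 in MDA-LM2 micro against MDA micro, against 75, 0 in MDA-LM2 macro against MDA macro, against 2, and 44 to 112 for the line difference, against 103. Over all genes, the fit of 15 arrays called 322 genes in MDA-LM2 micro against healthy, against 106, and 22 in MDA micro against healthy, against 0. It called 231 in MDA-LM2 micro against MDA micro, against 75, and 64 in MDA-LM2 macro against MDA macro, against 2. The block called 0 in MDA-LM2 micro against healthy and 0 in both comparisons of the lines. The mean of probe sets called 122 in MDA-LM2 micro against MDA micro, 21 in MDA-LM2 macro against MDA macro and 188 for the line difference, against 103, where the filter called 162. The filter called 19 in MDA-LM2 macro against MDA macro. Testing every probe set, which counts genes more than once, called 8999, 5884, 6579, 7635, 13784 and 191 for both macro groups against healthy, the stage within MDA-LM2 and MDA, the stage effect and the line difference.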
